A study of Mus musculus with 96 samples.

Results

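The AP-1 Fos and Jun family was examined in single haematopoietic stem cells from mouse bone marrow. The family was taken as 8 genes, Fos, Fosb, Fosl1, Fosl2, Jun, Junb, Jund and Atf3, picked by their row names among the 38406 genes of the count table, and all 8 had counts. The study set gene expression in single cells beside functional tests of single cells, to find what the functional stem cells of differently sorted fractions share. The 96 cells came from its HSC1 gate, which takes lineage-negative cells that carry c-Kit, Sca-1 and CD150 and lack CD34, Flt3 and CD48, in C57BL/6 mice that were 9 to 12 weeks old in the sample labels. They were sorted into the wells of a plate and made into full-length cDNA libraries with 1 library per cell. The animal behind each cell is not named, so the cells count as 1 sample, and relations between genes over cells are described without p-values.

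AP-1 is a dimer of basic leucine zipper (bZIP) proteins that binds DNA at short palindromic sites. Fos proteins bind DNA in a pair with a Jun protein, while Jun proteins can also pair with each other. Fos, Fosb, Jun, Junb and Atf3 are immediate early genes, whose short-lived transcripts appear within minutes of a growth signal or stress without new protein synthesis, and Jund is transcribed more steadily in many tissues. The Fos promoter is known to be switched on through serum response factor and its ternary complex partners and through CREB, a factor of the cAMP response element, while the Jun promoter holds AP-1-like sites through which Jun acts on its own gene.

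The promoters of the members measured best are shown first, because these short sites are what ties the genes to their known regulators. The RefSeq windows (GRCm38.p6) were found for 7 of the 8 members. Each line gives the 150 bases before the RefSeq start of a gene, 5′ to 3′ on the strand of the gene, with matches to the motifs searched in capitals.
Fos: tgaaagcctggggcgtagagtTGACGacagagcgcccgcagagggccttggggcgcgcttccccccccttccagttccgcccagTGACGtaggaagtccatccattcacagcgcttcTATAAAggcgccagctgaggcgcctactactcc
Fosb: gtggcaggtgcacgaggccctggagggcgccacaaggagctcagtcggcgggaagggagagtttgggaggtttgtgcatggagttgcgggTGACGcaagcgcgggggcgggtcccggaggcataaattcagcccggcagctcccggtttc
Jun: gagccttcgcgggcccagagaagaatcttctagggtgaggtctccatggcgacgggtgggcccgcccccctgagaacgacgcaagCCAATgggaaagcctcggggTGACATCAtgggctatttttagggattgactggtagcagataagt
Junb: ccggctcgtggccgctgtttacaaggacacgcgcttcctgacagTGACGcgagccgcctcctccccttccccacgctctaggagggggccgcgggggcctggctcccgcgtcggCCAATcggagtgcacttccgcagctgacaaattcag

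The Fos window lies at chr12:85473740-85473889 (+), the Fosb window at chr7:19310046-19310195 (-), the Jun window at chr4:95052223-95052372 (-) and the Junb window at chr8:84978749-84978898 (-). TGACG, the core of the cAMP response element, was found in Fos at -129 and at -66, in Fosb at -60 and in Junb at -106, counted from the start to the first base of the match. Over the 250 bases before the start and on both strands, 17.8% of 32851 RefSeq promoter windows held this core. Atf3 held it on the other strand at -7, as CGTCA. TGACATCA, a Jun-type AP-1 site, was found in Jun at -45, beside 2.93% of all windows. CCAAT stood at -65 in Jun and at -36 in Junb (33.8% of all windows), and TATAAA at -33 in Fos (12.4%). No window of a member held the whole element TGACGTCA (1.55% of all windows), the AP-1 site TGANTCA (6.75%) or a CArG box, the site of serum response factor (1.47%). Bases further than 250 before the start were not searched, so a site lying there would have been missed. The windows of Fosl2 and Jund held none of the motifs searched. The TGACG core overlaps TGACGTCA where both occur, and TGACATCA and TGANTCA differ in length and do not contain each other.

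Of the 96 cells, 92 passed a filter on gene counts, detected genes and the share of ERCC spike-ins, synthetic RNAs of known amount that were put in every well. The 92 cells held 739093 to 3473151 gene counts (median 1599930). The label was checked against marker genes. Of the genes that the gate includes, Kit was counted in 91 cells, Ly6a, which encodes Sca-1, in 85 and Slamf1, which encodes CD150, in 58. Procr, which encodes the stem cell marker EPCR and is not part of the gate, was counted in 85. Of the genes that the gate excludes, Cd34 was counted in 53 cells, Flt3 in 17 and the myeloid marker Itgam in 11, and of megakaryocyte genes Gp9 in 53, Pf4 in 34 and Itga2b in 34, with an r with Fos of -0.03, 0.103 and -0.08 for these last genes. Cd48, Cd3e, Ly6g, Mpo, Elane, Hba-a1 and Hba-a2 were at 0 in all 92 cells. Lyz2, a lysozyme gene of myeloid cells, was counted in 92 cells and Prtn3, a protease of granulocytes, in 90, and their r with Fos was -0.03 and 0.084. The r of the members with log10 detected genes ran from -0.06 for Atf3 to 0.17 for Fosl1 and Jund. With counts thinned to 739093 per cell the median r over member pairs, 0.360 in the full counts, was 0.352, and given detected genes it was 0.349. The part of lineage in the values below was not tested.

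Fos was high in some cells and almost absent in others. Its levels are given as normalized counts, which are counts divided by a size factor for each cell. Over the 92 cells they ran from 0 to 15460 with a median of 246 and a mean of 934 ± 1960 (SD, n = 92 cells). Fos had 0 counts in 11 cells, 1 to 3 counts in 20, 4 to 9 in 1 cell and 10 or more in 60, and in 32 cells it had 1000 or more counts. The cells therefore fell into a group near 0 and a broad group that spanned more than a factor of 100 in level, with almost no cell between them. Fos was counted in 81 of 92 cells (exact 95% interval 79.6 to 93.9%, for counting of cells only). Cell 89 held the highest value of 15460, followed by cell 5 at 7190 and cell 92 at 5264. The highest 5 cells held 41.4% of the summed Fos level, and without cell 89 the mean was 774.

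A count of 1 to 3 was unusual for a gene with so high a mean. Among the 391 genes with a mean normalized count of at least 500, a median of 0% of cells held 1 to 3 counts, and the 95th percentile was 3.26%. Fos held them in 21.7% of cells, which ranked 1 of 391, and Jun in 5.43%. Fos lies at chr12:85473890-85477273 on the plus strand (GRCm38, GENCODE M21) and shares no exon bases with another annotated gene. The source of these low counts was not tested.

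The other Fos genes were lower and sparser. Fosb, the closest relative of Fos with a transactivation domain, ran from 0 to 520 normalized counts with a median of 35.7 and a mean of 67.2 ± 93.9 (SD, n = 92), and 61 cells had a count. Cell 42 held the highest value of 520, followed by cell 18 at 353 and cell 9 at 342. Like Fos, Fosb was either near 0 or clearly counted: 31 cells had 0 counts, 4 had 1 to 3, none had 4 to 9 and 57 had 10 or more. Fosl1 and Fosl2 encode the Fos-related antigens Fra-1 and Fra-2, which lack the transactivation domain of Fos. Fosl1 had counts in 7 cells (7.61%, exact 95% interval 3.11 to 15.1%), with 174 in cell 59, 93.6 in cell 39 and 56.6 in cell 54. Of its exon bases 57.2% also belong to Ccdc85b on the other strand, and reads there cannot be told apart without the strand. Fosl2 had counts in 18 cells (19.6%, exact 95% interval 12.0 to 29.1%), with 278 in cell 52, 201 in cell 63 and 185 in cell 96. None of these 3 cells was among the 3 highest for any other member.

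**Figure D1:**
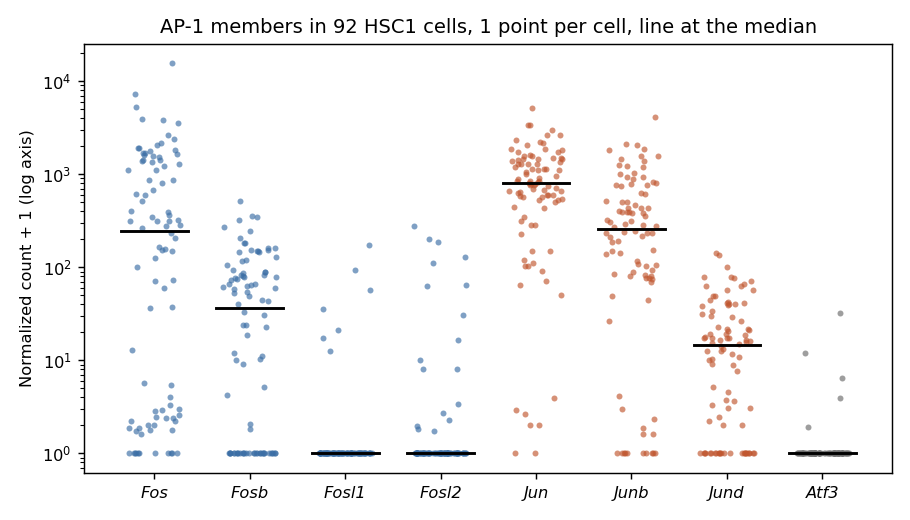
Normalized count + 1 on a log axis (y) for each AP-1 member (x) in 92 HSC1 cells, with 1 point per cell, a black line at the median and points spread sideways only for view (Fos genes blue, Jun genes orange, Atf3 grey). Fos shows a cluster of cells near 0 and a broad cluster above it, Jun a compact cluster around its median of 796, and Fosl1, Fosl2 and Atf3 are at 0 in most cells.

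Jun was the most evenly present member. Jun, the main partner of Fos proteins, was counted in 90 of 92 cells and ran from 0 to 5139 normalized counts with a median of 796 and a mean of 1005 ± 881 (SD, n = 92). The middle of the distribution was narrow, with quartiles of 440 and 1431. It had 10 or more counts in 85 cells, 1 to 3 in 5 and 0 in 2. Cell 11 held the highest Jun level of 5139, followed by cell 5 at 3384 and cell 16 at 3340. Junb, a Jun protein that often opposes Jun on shared targets, was counted in 82 cells and ran from 0 to 4090 with a median of 256 and a mean of 481 ± 640. Its highest cells were cell 85 at 4090, cell 4 at 2101 and cell 76 at 2078. Jun and Junb thus had different highest cells, and the quartiles of Junb, 78.9 and 660, were further apart in ratio than those of Jun.

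Jund, the member known for steady transcription, was low here, from 0 to 142 normalized counts with a median of 13.5 and a mean of 21.8 ± 28.6 (SD, n = 92). It was counted in 68 cells, with 10 or more counts in 51. Over its exon bases 52.6% are shared with Gm11175 on the other strand, which had 0 counts in all 96 cells. How reads in the shared bases were counted is not given in the sources used here. Atf3, a bZIP repressor that pairs with Jun proteins and responds to stress, had counts in 5 cells (5.43%, exact 95% interval 1.79 to 12.2%), at most 31.6 in cell 41, and 10 or more counts in 2 cells.

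Levels of different genes were compared per kilobase of merged exons, because full-length libraries give more reads to longer transcripts. By mean the order was Fos at 397 ± 833 normalized counts per kb, Jun at 315 ± 276, Junb at 209 ± 278, Jund at 13.1 ± 17.1, Fosb at 10.8 ± 15.04, Fosl1 at 2.17 ± 10.6, Fosl2 at 1.24 ± 4.55 and Atf3 at 0.261 ± 1.64 (SD, n = 92). Each step between neighbours in this order was smaller than the SD over cells of at least one of the pair. The order by median was different at the top, with Jun at 250 per kb, Junb at 111 and Fos at 105. Within cells, Fos was above Jun in 36 and below it in 55, and above Junb in 44 and below it in 43. Jun was above Junb in 66 cells and below it in 25. Junb stood above Jund in 80 cells and below it in 9, which was the widest gap between neighbours among the first 5 genes. Dividing by only the exon bases that no other gene shares left the order of means as it was. It raised Jund to 27.5 per kb and Fosl1 to 5.08, beside Junb at 226. The comparisons within cells and the shares below use all merged exon bases.

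Jun genes made up most of the family's transcripts in most cells. Cell 75 had no count of any member. Of the other 91 cells, Jun was the highest member per kb in 43, Fos in 28, Junb in 18, and Jund and Fosl2 in 1 each. Of the summed per-kb level of the 8 genes, Jun took a median of 38.7% over cells, Fos 20.6% and Junb 15.8%. Jun, Junb and Jund together took a median of 76.4% (quartiles 52.3 and 97.0%), and they held over 50% in 72 cells. Fos alone held over 50% in 15 cells.

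The next comparison asked which members varied between cells by more than technical noise. The squared coefficient of variation (CV2) of each gene was set against a curve fitted to the ERCC spike-ins. A chi-square test after Brennecke et al. asked for a biological coefficient of variation above 0.5, at a p adjusted by Benjamini-Hochberg of under 0.1. By this test 560 of 21211 counted genes were called variable (2.64%), and 2627 lay above the curve (12.4%). The p-value is set against noise of counting and of spike-ins, and says nothing of animals. Of the 8 members 2 were called, Fos and Junb, and 3 lay above the curve, Fos, Junb and Jun. Since calls are more frequent among well-counted genes, the same shares were taken over the 5878 genes with a mean of at least 50 in at least 23 cells, where 4.34% were called and 24.7% lay above the curve. Members that met this filter were Fos, Fosb, Jun and Junb.

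Fos had a CV2 of 4.41 where the curve gave 0.335, a ratio of 13.2 (adjusted p = 8.88e-83, chi-square test), which ranked 4 of those 5878 genes. This ratio rested in part on cell 89: without it the ratio was 6.81 and Fos was still called (adjusted p = 7.37e-30). Junb had a CV2 of 1.77 and a ratio of 3.30 (adjusted p = 6.85e-08), which ranked 57. Jun had a ratio of 2.41 (adjusted p = 0.842) and ranked 122, so that its CV2 of 0.770 was above the technical curve but not past the test. It was called with ERCC size factors (adjusted p = 0.00012) and when the biological coefficient of variation asked for was 0.25 (adjusted p = 5.69e-06). The other 5 members lay under the curve, Fosl2 at a ratio of 0.801, Fosb at 0.630, Fosl1 at 0.525, Jund at 0.185 and Atf3 at 0.110. A spread beyond the technical curve was not detectable for these genes.

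**Figure D2:**
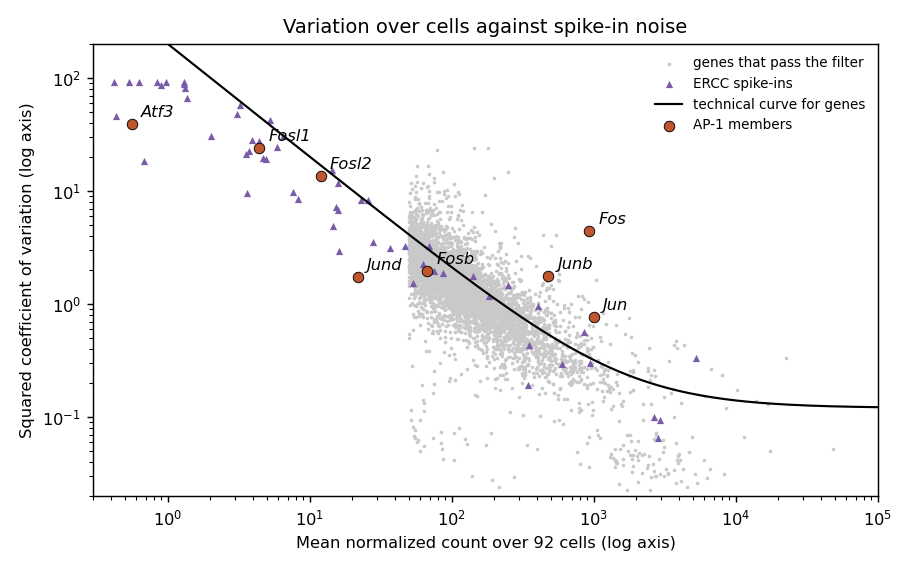
Squared coefficient of variation (y) against mean normalized count over 92 cells (x), both on log axes, for 5878 genes (grey), ERCC spike-ins (triangles) and the 8 AP-1 members (orange), with the technical curve for genes in black. Fos, Junb and Jun lie above the curve by ratios of 13.2, 3.30 and 2.41, and the other 5 members lie under it.

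The members were then read together, cell by cell. With 10 or more counts taken as counted, all 60 cells with Fos also held Jun, and 58 of them held Junb. Of the 32 cells with under 10 Fos counts, 25 held Jun and 18 held Junb. So Jun and Junb were often present without Fos, while Fos without Jun was not seen. Fosb was at 10 or more counts in 42 of the 60 cells with Fos and in 15 of the 32 others. In 17 cells Jun and Junb were counted without Fos, in 8 Jun alone of these genes, in 1 Junb alone and in 6 none of them. The number of members counted per cell was most often 4, in 33 cells, or 5, in 24 cells, and it was 6 in 7 cells and 0 in 5 cells. The 5 cells with no member held 739093 to 1800274 gene counts and 5690 to 6975 detected genes, and they include the shallowest cell that was kept.

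Single cells show how far the members could separate. Cell 89 had 15460 normalized counts of Fos beside 1710 of Jun, 1185 of Junb and 268 of Fosb. Cell 5 was high for Fos at 7190 and for Jun at 3384 and held the highest Jund of 142, but had no count of Fosb. Cell 11 had the highest Jun level of 5139 with 0.775 of Fos and 0 of Junb. Cell 85 went the other way, with the highest Junb of 4090 and with Fos at 3790, while its Jun of 497 was only rank 68 of 92. Cell 9 had 1762 of Fos, 342 of Fosb and 1274 of Jun beside 0.601 of Junb. Cell 89, the highest for Fos, ranked 5 of 92 for Fosb, 12 for Junb, 15 for Jun and 23 for Jund. The highest cells of Jun, Junb and Jund, which were cells 11, 85 and 5, each had a low rank for another of these genes.

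**Figure D3:**
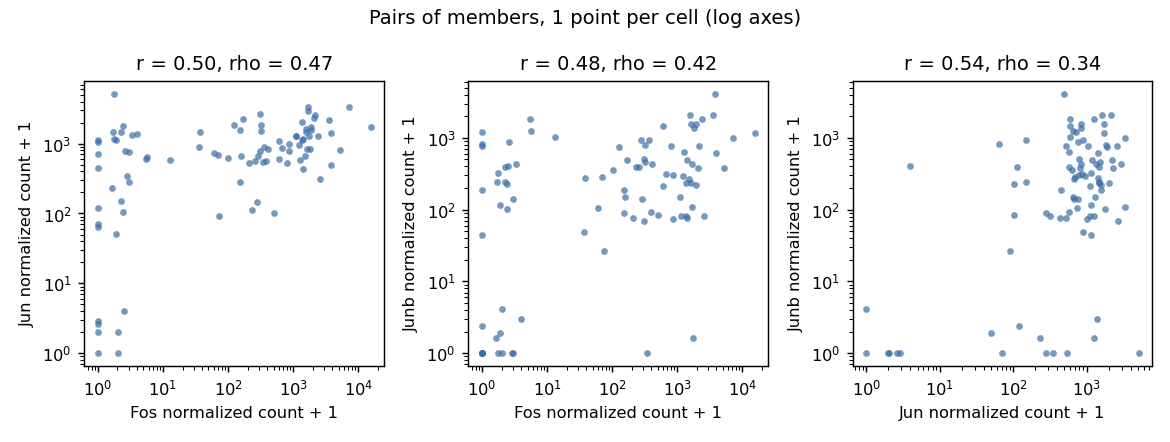
Normalized count + 1 of Fos against Jun (left), Fos against Junb (middle) and Jun against Junb (right), on log axes, with 1 point per cell and n = 92 cells. The lower right of the left panel is empty, since all 60 cells with 10 or more Fos counts also held Jun, and the r of the panels is 0.502, 0.483 and 0.540.

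Relations between members were computed on log10(normalized count + 1) and are descriptions over 92 cells that share a plate preparation and differ in depth. Over the 5 members counted in at least 46 cells, Fos, Fosb, Jun, Junb and Jund, all 10 pairs had a positive r, with a median of 0.360 and a range of 0.161 to 0.540, and 8 reached 0.3. Among all genes that met the filter, 0.374% reached an r of 0.3 with Fos, 0.647% with Jun, 0.34% with Junb, 0.374% with Fosb and 0.578% with Jund. Fos and Jun had an r of 0.502 (Spearman's rho 0.469, r = 0.508 without the 2 cells farthest from the median Fos). Fos and Junb had an r of 0.483 (rho 0.419, 0.503 without 2 cells). For Jun and Junb the r of 0.540 fell to a rho of 0.339. Among the 75 cells with at least 10 counts of both genes r was 0.145, so this relation rested mostly on the cells where a gene was near 0. The r of Fos with Jun was 0.343 in the 60 cells with both counted, and that of Fos with Junb 0.346 in 58 cells. These subsets were chosen after the values were seen.

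Fosb had an r of 0.368 with Jun, 0.342 with Fos, 0.311 with Jund and 0.244 with Junb. Jund had an r of 0.393 with Jun and 0.353 with Fos but 0.161 with Junb, the lowest of the 10 pairs. The 18 pairs with Fosl1, Fosl2 or Atf3 had a median r of 0.00715 and a range of -0.144 to 0.220, and none reached 0.3. These 3 genes were at 0 in most cells, and a weak r in such sparse counts says little about them.

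The genes most like each member were read from 5874 genes outside the family. For Fos they included Egr1, a zinc finger immediate early factor (r = 0.443, rho = 0.506). It was followed by Ptov1 (0.384), Zfp36, which encodes the mRNA-degrading protein tristetraprolin (0.383), Ier2, an immediate early gene (0.382), Ppp1r15a, which encodes the eIF2 phosphatase subunit GADD34 (0.374), Ubb, a ubiquitin gene (0.366), Renbp (0.365), H2-DMb1 (0.340) and Tle6 (0.338). The median r of all these genes with Fos was 0.00962 and the 95th percentile 0.189. The r of Jun and of Junb with Fos was above that of all 5874 outside genes. An r of -0.3 or less with Fos was found for 10 genes (0.17%). The lowest were those of Dhrs3, a retinal reductase (-0.39), Frmd8 (-0.36) and Tap1, a peptide transporter of antigen presentation (-0.34).

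Egr1 was near the top for 4 of the 5 members, with an r of 0.576 with Jun, 0.450 with Junb and 0.430 with Jund beside 0.443 with Fos. It ranged over cells much as the members did, at a mean normalized count of 559 ± 789 (SD, n = 92) with counts in 83 cells. For Jun the next genes were Ncl, which encodes the nucleolar protein nucleolin (0.471, rho 0.286), Ppp1r15a (0.467), Ndufv2, a subunit of complex I (0.403, but 0.264 without 2 cells), and Dusp1, a phosphatase that switches off MAP kinases (0.390). For Junb they included Ppp1r15a (0.564), Egr1, Arl8b (0.363, rho 0.175) and Slc23a2, a vitamin C transporter (0.358). The list for Fosb held none of these. It was led by the histone genes Hist1h2ae (0.424) and Hist1h2ac (0.408) with Snora24, a small nucleolar RNA (0.418), Zdhhc13 (0.377) and Myl12b (0.368). Jund was most like Rab32 (0.437), followed by Egr1, Rrp9 (0.411), Ascc1 (0.403) and Ptpmt1 (0.396).

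Lists of genes from the same pathway were counted next, to be read beside the 2.64% called and the 12.4% above the curve over all counted genes, and beside the 0.374% of filtered genes that reached an r of 0.3 with Fos. Several immediate early genes outside AP-1 followed Fos. Of 31 listed, 28 had counts, 16 lay above the technical curve and 9 were called variable, Egr1, Ier2, Ier3, Btg2, Klf10, Myc, Ppp1r15a, Sgk1 and Plk2. Of the 12 that met the filter, 3 reached an r of 0.3 with Fos, Egr1, Ier2 and Ppp1r15a, and their median r was 0.116. The list was not uniform: Myc, the growth factor-responsive oncogene, was called variable (ratio 3.73) with an r of 0.139 with Fos. Plk2, a kinase induced by serum (ratio 4.12), had -0.06, and Nfkbia, the feedback inhibitor of NF-kB, had the lowest r of the 12 at -0.18. Egr2, Egr3 and Ctgf had no counts.

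Feedback regulators, which help to end the response, include phosphatases of MAP kinases and proteins that degrade AU-rich transcripts such as that of Fos. Of 12 listed, 3 were called variable: Dusp2, a nuclear MAP kinase phosphatase (ratio 7.06, mean 442 ± 890), Dusp1 (3.89, 568 ± 770) and Zfp36 (3.36, 567 ± 715). Zfp36 had an r of 0.383 with Fos, Dusp2 0.278 and Dusp1 0.207, while Dusp1 had 0.390 with Jun. The median r with Fos over the 6 that met the filter was 0.186, the highest of the 10 lists plotted. Dusp6, a phosphatase of ERK, was at an r of -0.07.

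**Figure D4:**
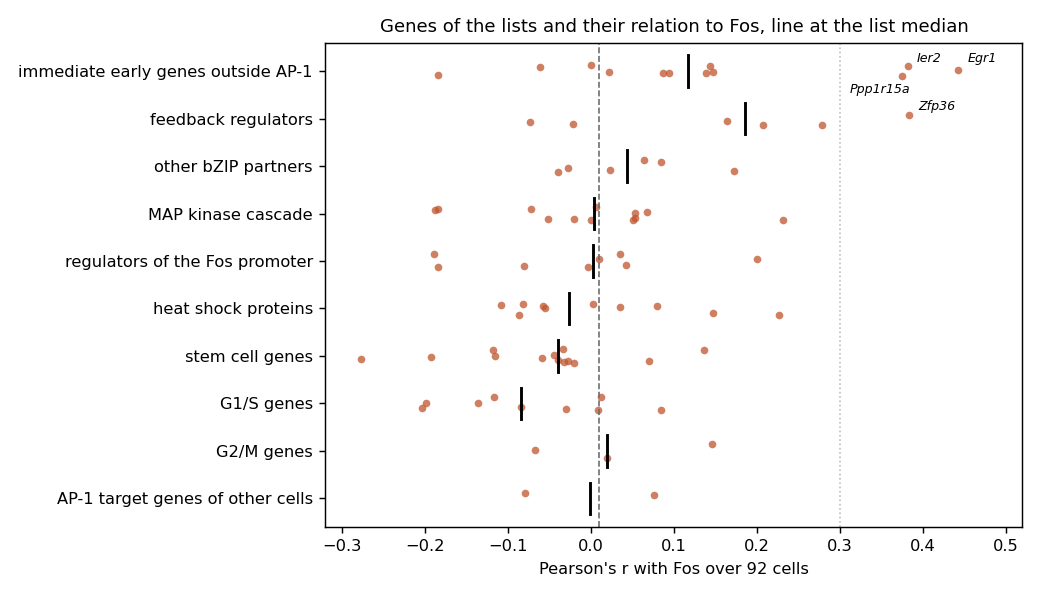
Pearson's r with Fos over 92 cells (x) for the genes of 10 lists (y) that met the filter, with 1 point per gene, a black bar at the list median, a dashed line at the median of all 5874 genes (0.00962) and a dotted line at 0.3. Egr1, Ier2, Ppp1r15a and Zfp36 lie past 0.3, and the medians of the first 2 lists are 0.116 and 0.186.

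None of the genes listed upstream of AP-1 was called variable. Over all counted genes 2.64% were called, and lists this short can hold 0 calls at that share. Of 21 genes of the MAP kinase cascade, which carries growth and stress signals to the Fos and Jun promoters, 0 were called and 5 lay above the curve, and the median r with Fos was 0.00328 over 12 genes. Of these 12, Mapk14, the p38 kinase, had the highest r of 0.231. Of 12 regulators of the Fos promoter, 0 were called and the median r was 0.00293 over 8 genes. Stat3, a cytokine-activated factor, had 0.20 at a mean of 289 ± 250, and Elk4, a partner of serum response factor, had -0.19. Srf itself was counted in 12 cells. These proteins are controlled largely by phosphorylation, which counts of transcripts do not show.

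Of 14 other bZIP partners 0 were called, which is also near the 2.64% of all counted genes. Their median r with Fos was 0.0434 over 6 genes. Nfe2, a bZIP factor of the megakaryocytic and erythroid lineages, was the highest of them at 1146 ± 603 and had an r of 0.022, and Atf4, a stress-response factor, had 0.172 at 376 ± 228. Of 13 genes known as AP-1 targets in other cells, 10 had counts, 0 were called and 2 met the filter. These were Cd44, an adhesion receptor, with an r of -0.08, and Ccnd1, which encodes cyclin D1, with 0.076.

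Heat shock genes had a median r with Fos of -0.03 over 10 genes. The part of cell handling in these values was not tested. Of 12 listed, 2 were called, Hspa1a and Hspb1. Among those that met the filter, Hspe1 had the highest r with Fos of 0.226 and Dnajb1 the lowest of -0.11. Hspe1 had 0.312 with Jun, and Hspa1b, which did not meet the filter, had 0.182 with Fos. Stem cell genes had a median r of -0.04 over 13 genes, of which 2 were called, Ly6a and Mllt3, a chromatin reader of stem cells. Ly6a, at 823 ± 895, had the lowest r with Fos of this list, -0.28, and -0.22 with Jun but 0.065 with Junb. The G1/S genes had a median r with Fos of -0.08 over 9 genes and 4 of 15 were called. Of 20 G2/M genes 13 were called, while the median r with Fos over the 3 that met the filter was 0.0188.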

How the data were processed

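The values deposited by the authors are raw counts of reads for genes and ERCC spike-ins in 96 single-cell libraries, without molecular identifiers. They were made on mm10 with HTSeq 0.6.1 after STAR 2.3.0 and SAMtools 0.1.18, according to the submitters' processing notes. The strand setting and annotation release are not given in the sources used here. Cells over 3 scaled median absolute deviations (scale 1.4826) low in log10 gene counts or log10 detected genes, or high in ERCC share, were left out, leaving 92. Median-of-ratios size factors were taken over 602 genes, and separately over 8 spike-ins. The technical curve was a gamma fit to 16 spike-ins (constant 0.120, slope 190). The fit was also run on simulated data drawn from that same curve, which cannot show whether the curve suits these data. Relations are Pearson's r on log10(normalized count + 1), with Spearman's rho. Intervals cover counting error only, and no p-value here covers animals.

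Genes named were all members, for each member counted in at least 46 cells the 5 genes with the highest r (for Fos the highest 10 and the lowest 3), and in each list up to 4 by absolute r with Fos and up to 3 by mean, among genes with a mean of at least 50 in at least 23 cells. Other list genes were named where they make up a count, and Myc, Plk2, Dusp6, Srf and single cells were singled out after their values were seen. Some genes that this rule takes are not reported here. The members and lists were chosen with earlier results of these data known. Alternatives were other cell filters, size factors, noise settings, pseudocount, ranks, thinning to 739093 counts and a partial r. The software was Python 3.11.15 with scipy 1.17.1, numpy 2.4.6 and pandas 2.3.3, and figures were drawn with matplotlib 3.10.9. Sequences are from RefSeq.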

Additional observations from a re-analysis of the deposited data

Results flagged for a closer look

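The 4 cells that failed the technical filter enter none of the comparisons, and 2 of them held more than 3 counts of a member. Cell 1, with 633845 gene counts, had 387 raw counts of Fos, 260 of Jun and 8 of Jund. Cell 36, with 4948251 gene counts and an ERCC share of 2.88%, had 3685 raw counts of Jun, 447 of Jund and 141 of Junb beside 3 of Fos. The 447 counts of Jund in cell 36 lie above the 190 that were the highest raw count of Jund in the 92 cells kept.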

How the results depend on the processing

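The number of genes called variable was 560, and it was 1047 with ERCC size factors for genes, 1330 with spike-ins above the 50th percentile in the fit and 297 among genes with a mean of at least 50. The last follows from testing fewer genes, and for the others the cause was not tested. Over 8 alternatives, of which leaving out cell 89 was added after the values were seen, 2 or 3 members were called, Fos and Junb in each, and over 7 of them 3 or 4 lay above the curve, the fourth being Fosl2 with spike-ins above the 50th percentile. The median r over the 10 member pairs ran from 0.349 to 0.381 over 10 alternatives, and 3 immediate early genes reached an r of 0.3 with Fos in each. Of 100 alternative values of r between members 98 moved by less than 0.1, and Spearman's rho lowered Jun with Junb to 0.339 and Fosb with Junb to 0.120. Of 938 values for named genes with Fos 11 moved further. Fos was counted in 70 cells after thinning and in 60 with counts under 10 set to 0. None of these values was reversed. No paired analysis was possible because the cells form 1 group and carry no shared replicate numbers. For the 5 members under the curve a spread beyond noise was not detectable, and the part of depth in this was not tested. At its mean Atf3 could not have lain above the curve.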
